A study of Mus musculus with 9 samples.

Results

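The 7 maternal imprint regions of mouse chromosomes 6 and 7 at Peg10, Mest, Nap1l5, Peg3, Snrpn, Inpp5f and Kcnq1ot1 were examined in primordial germ cells, the embryonic precursors of eggs and sperm, with and without Tet1. The members are the CpG sites inside 7 fixed intervals of genome build mm9. The intervals are set by position, without a cutoff on a measured value, but were chosen with earlier results of these data known. They hold 344 sites listed in the tables of both genotypes, of 11380646 such sites in all, and 707 sites listed in either table. The Tet1-null group was 5 libraries from female C57BL/6 embryos of genotype Tet1 -/- at embryonic day 13.5, made from 1400 to 4700 cells each, and the WT group was 4 libraries from wild-type female C57BL/6 embryos of that age, made from 1575 to 5251 cells each. Libraries 1 and 2 of the Tet1-null group list the same input of 3266 cells, and the titles of WT libraries 1 and 3 carry an added suffix. The labels do not say whether all libraries came from separate embryos. Methylation was measured by whole-genome bisulfite sequencing, and the values came as 1 pooled table per genotype. Every difference below is therefore between 2 pools, with no replicate check, and its interval covers counting error only. The labels name no sort for the germ cells and no allele other than Tet1, and neither the cell type nor the deletion of Tet1 was checked in these tables.

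These regions carry DNA methylation that is laid down in growing oocytes and that somatic cells keep on the chromosome inherited from the mother, so that the linked genes are expressed mainly from the father's copy. Primordial germ cells erase this mark in midgestation, before the next generation of imprints is written. The TET1 enzyme converts 5-methylcytosine to 5-hydroxymethylcytosine, and the question here is whether imprints keep methylation in germ cells that lack it. The protein ZFP57 binds TGCCGC when its CpG is methylated and protects imprints in early embryos.

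Over all sites of the autosomes and the X chromosome, 4.16% of reads were methylated in the Tet1-null pool and 3.50% in the WT pool. The level on chrM, a measure of cytosines left unconverted, was 1.29% in the Tet1-null pool and 1.66% in the WT pool. The pools had a mean depth of 2.85 and 2.21 reads per listed site, and no site of the 7 regions held more than 8 reads. Conversion kit and sequencing run differed in share between the pools (Sigma kit in 2 of 5 Tet1-null and 2 of 4 WT libraries, run 1 in 0 and 1). With libraries pooled, an effect of kit or run cannot be told apart from one of genotype.

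Promoter sequences are shown for the 5 members whose annotated start lies in their region, because they display which CpGs kept methylated reads. They are RefSeq sequences of build GRCm38.p6, from 250 bases before to 50 after the start, and were placed in the mm9 tables by matching the spacing of their CpGs to the listed positions. Capitals mark the CpGs with 1 or more methylated reads in the pool named, and everything else is in lower case. A CpG in lower case may therefore be one without any read in that pool. The positions in mm9 are chr6:30687800-30688099 (plus strand) for Mest, chr6:58857071-58857370 (minus) for Nap1l5, chr7:6683081-6683380 (minus) for Peg3, chr7:67150036-67150335 (minus) for Snrpn and chr7:150482403-150482702 (minus) for Kcnq1ot1. Peg10 has no entry in the table of promoters used. The single Inpp5f promoter in it lies outside the Inpp5f region, and is described with the neighbouring genes.
Mest, Tet1-null: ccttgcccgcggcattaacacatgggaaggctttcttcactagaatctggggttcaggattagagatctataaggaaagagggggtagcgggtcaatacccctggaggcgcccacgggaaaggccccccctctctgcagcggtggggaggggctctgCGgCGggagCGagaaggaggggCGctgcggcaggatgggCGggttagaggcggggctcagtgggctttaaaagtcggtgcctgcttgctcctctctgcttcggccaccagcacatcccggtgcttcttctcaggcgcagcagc
Nap1l5, Tet1-null: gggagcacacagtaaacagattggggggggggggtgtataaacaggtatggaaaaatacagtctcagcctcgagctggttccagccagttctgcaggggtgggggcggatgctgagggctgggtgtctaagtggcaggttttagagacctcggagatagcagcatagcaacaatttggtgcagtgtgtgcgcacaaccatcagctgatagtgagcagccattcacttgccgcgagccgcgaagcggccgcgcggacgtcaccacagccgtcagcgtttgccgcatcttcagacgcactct
Peg3, Tet1-null: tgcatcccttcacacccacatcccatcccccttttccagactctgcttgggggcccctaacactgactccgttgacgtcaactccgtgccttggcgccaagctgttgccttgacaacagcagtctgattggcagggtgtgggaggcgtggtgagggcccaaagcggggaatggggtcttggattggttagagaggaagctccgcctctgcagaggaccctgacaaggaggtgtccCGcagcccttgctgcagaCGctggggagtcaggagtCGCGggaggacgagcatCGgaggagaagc
Peg3, WT: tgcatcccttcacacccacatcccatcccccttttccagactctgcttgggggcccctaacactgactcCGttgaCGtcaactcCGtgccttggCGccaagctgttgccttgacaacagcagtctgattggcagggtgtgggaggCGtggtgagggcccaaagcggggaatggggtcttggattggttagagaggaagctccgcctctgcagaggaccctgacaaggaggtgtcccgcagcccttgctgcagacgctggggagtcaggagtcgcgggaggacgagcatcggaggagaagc
Snrpn, Tet1-null: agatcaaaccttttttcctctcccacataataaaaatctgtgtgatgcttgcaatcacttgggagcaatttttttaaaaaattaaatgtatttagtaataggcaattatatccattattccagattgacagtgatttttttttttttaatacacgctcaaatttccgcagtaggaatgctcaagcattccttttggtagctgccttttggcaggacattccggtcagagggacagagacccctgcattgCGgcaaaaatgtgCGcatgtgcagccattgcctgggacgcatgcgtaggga
Kcnq1ot1, Tet1-null: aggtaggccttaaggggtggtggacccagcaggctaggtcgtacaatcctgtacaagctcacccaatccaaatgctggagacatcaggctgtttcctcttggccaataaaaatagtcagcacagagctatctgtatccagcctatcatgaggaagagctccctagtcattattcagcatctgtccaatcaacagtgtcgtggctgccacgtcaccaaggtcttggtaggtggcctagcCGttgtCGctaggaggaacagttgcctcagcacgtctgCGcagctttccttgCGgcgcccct
Kcnq1ot1, WT: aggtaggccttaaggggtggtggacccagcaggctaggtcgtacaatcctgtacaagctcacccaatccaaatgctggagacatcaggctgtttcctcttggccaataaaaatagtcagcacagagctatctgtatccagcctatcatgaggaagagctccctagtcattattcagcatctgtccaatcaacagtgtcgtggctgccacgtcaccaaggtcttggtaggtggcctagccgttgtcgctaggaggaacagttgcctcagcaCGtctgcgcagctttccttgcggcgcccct
The WT pool had no methylated read at the listed CpGs of the Mest, Nap1l5 and Snrpn promoters, so no WT line is given for them. Its reads there were few, 14 at 10 of 17 CpGs of Mest, 3 at 3 of 17 of Nap1l5 and 3 at 3 of 7 of Snrpn. At the Snrpn promoter the Tet1-null pool held 2 methylated reads of 13. In the printed lines, the Tet1-null pool had reads at 11 of 17 CpGs of Nap1l5 and the WT pool at 6 of 13 of Peg3.

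Within the Mest promoter, CpGs 7 to 12 from the 5′ end held 7 methylated reads of 11 in the Tet1-null pool and 0 of 6 in the WT pool, while CpGs 1 to 6 held 0 of 27 and 0 of 8. The methylated reads of the Tet1-null pool thus lay in the stretch around the middle of the printed sequence. In the Kcnq1ot1 promoter, CpGs 4 to 9 held 4 methylated reads of 10 in the Tet1-null pool and 1 of 30 in the WT pool. The Peg3 promoter split into parts. At CpGs 1 to 5, 0 of 23 reads were methylated in the Tet1-null pool and 9 of 15 in the WT pool. At CpGs 7 to 13, 8 of 14 reads were methylated in the Tet1-null pool, and the WT pool had none to compare. These stretches were chosen after their values were seen. One stretch of Peg3 was thus methylated in the WT pool alone, and the part nearest its start could not be compared. TGCCGC, read on both strands, occurred 2 times in the Mest promoter, 2 times in that of Nap1l5, 1 time in that of Snrpn and 0 times in those of Peg3 and Kcnq1ot1, and it is present in 11.6% of the 32851 promoter sequences in the table.

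Across the 7 regions, at sites listed in both tables, the Tet1-null pool held 124 methylated reads of 839 (14.8%) and the WT pool 50 of 637 (7.85%). The level was higher in the Tet1-null pool at 5 regions (Peg10, Mest, Peg3, Inpp5f and Kcnq1ot1), lower at Snrpn, and 0 in both pools at Nap1l5. The median difference of the regions was 10.8 percentage points, against 0 over 278113 windows of 1 kb. Of those windows, 38.9% had a higher and 30.4% a lower level in the Tet1-null pool. Fisher's exact test compares the reads of the pools and not the genotypes. With p-values adjusted by Benjamini-Hochberg over the regions and all windows together, 0 of 7 regions passed an adjusted p of 0.05 at these sites, where 0.103% of the windows were called higher and 0.0608% lower. At an unadjusted p under 0.05 there were 3 regions, Peg10 and Kcnq1ot1 higher and Snrpn lower, while 7195 of the windows were higher and 4487 lower at that p. A quasi-binomial F test, which lets sites vary beyond counting error, also called 0.

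When all sites listed in each table were summed, 3 of 7 regions passed, Peg3, Inpp5f and Kcnq1ot1, all higher in the Tet1-null pool, against 0.102% of 372073 windows called higher and 0.0715% called lower. The Tet1-null pool then held 218 methylated reads of 1384 (15.8%) and the WT pool 56 of 888 (6.31%). Those sums rest in part on CpGs that only 1 pool covered, so the sites compared are not the same. Neighbouring CpGs can lie on the same DNA molecule, and reads copied by PCR cannot be told from new molecules. These p-values are therefore too small and the intervals throughout too narrow, by an amount that was not measured. With sites at least 100 bp apart, 0 regions passed, on far fewer reads.

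**Figure D1:**
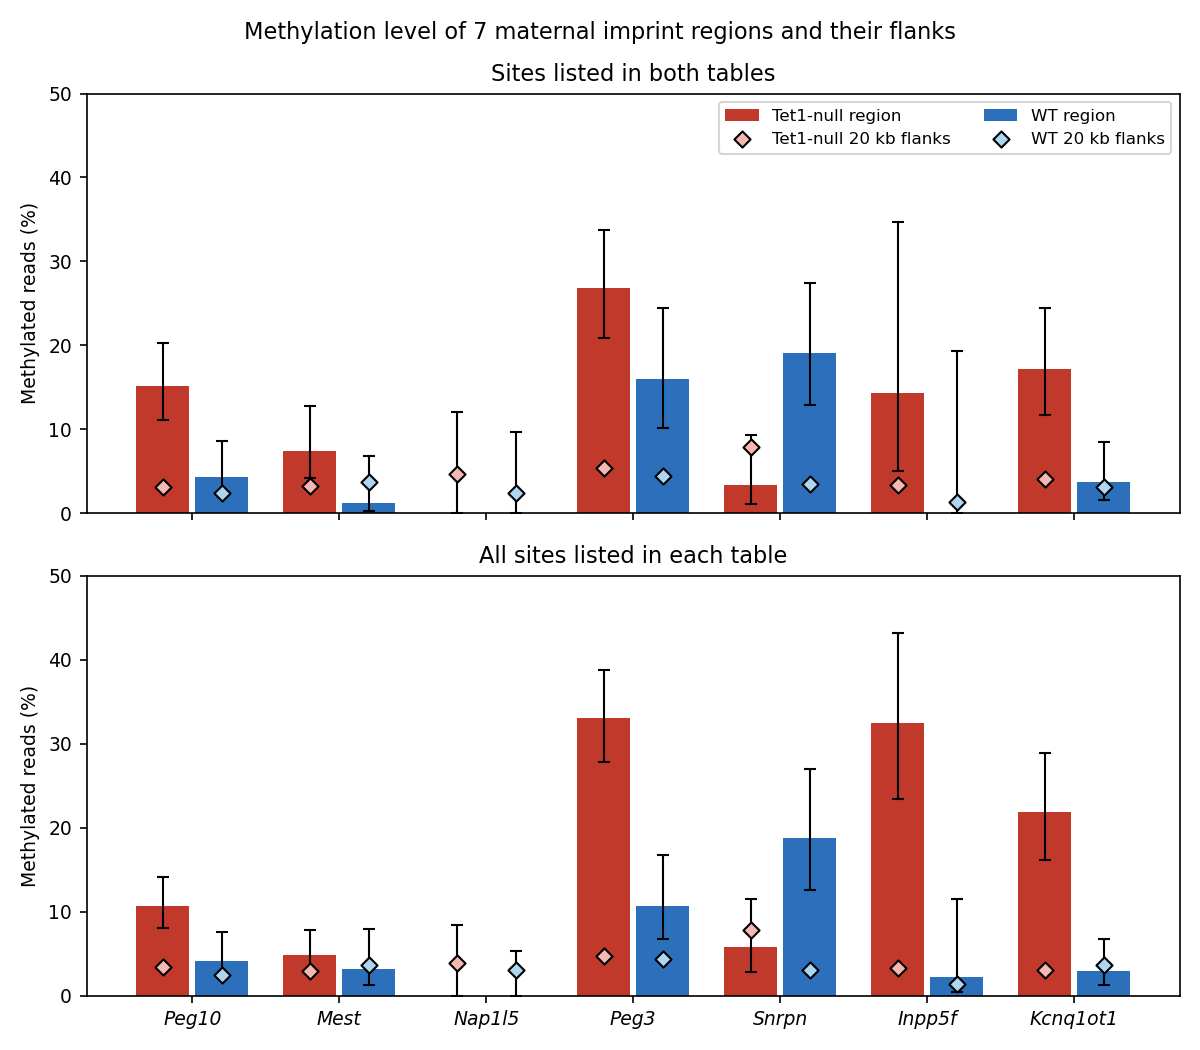
Share of methylated reads (vertical axis, percent) in each of the 7 regions, with Tet1-null bars left of WT bars, Wilson 95% intervals, and diamonds for the 20 kb flanks; the upper panel uses sites listed in both tables and the lower all sites of each table. In the lower panel Peg3 (33.1%) and Inpp5f (32.5%) are the tallest bars of the Tet1-null pool, and Snrpn (18.8%) is the tallest of the WT pool.

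Kcnq1ot1 is a long noncoding RNA that starts inside Kcnq1 on the opposite strand and silences its neighbours on the paternal chromosome. Its region (chromosome 7 from 150481000 to 150482700) had 23 methylated reads of 134 in the Tet1-null pool, or 17.2% (Wilson 95% interval 11.7 to 24.4%), and 5 of 133 in the WT pool, or 3.76% (1.62 to 8.50%), at 50 sites listed in both tables. The difference was 13.4 points (Newcombe 95% interval 6.19 to 21.0), with an adjusted p of 0.148 by Fisher's exact test. The depth of the pools was almost equal here, 2.68 and 2.66 reads per site. Summed over all listed sites, the levels were 21.9% in the Tet1-null pool and 2.98% in the WT pool, a difference of 18.9 points that passed Fisher's exact test (adjusted p = 0.000433) and the quasi-binomial F test (adjusted p = 0.0243). The sites added there were different CpGs in each pool, with 12 methylated reads of 26 at those of the Tet1-null pool and 0 of 35 at those of the WT pool. Kcnq1ot1 was higher in the Tet1-null pool under each of 14 alternatives run. Some of these change only the test or its adjustment and repeat the same difference, so they could not alter the direction. Its methylated reads lay at 25 of 59 listed sites in the Tet1-null pool and at 5 of 66 in the WT pool. The longest run of successive sites with a methylated read in the Tet1-null pool spanned 91 bp and 10 CpGs, with 16 methylated reads of 35, and the WT pool had 2 of 4 there.

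Snrpn encodes a small nuclear ribonucleoprotein, and its start is the imprinting centre of the Prader-Willi domain. Its region (chromosome 7 from 67147500 to 67150500) went the other way. It held 3 methylated reads of 90 in the Tet1-null pool, or 3.33% (1.14 to 9.35%), and 21 of 110 in the WT pool, or 19.1% (12.8 to 27.4%). The difference was -15.8 points (-24.4 to -7.08), with an adjusted p of 0.188 by Fisher's exact test, and -12.9 points (-21.7 to -4.52) with all listed sites (adjusted p = 0.426, Fisher's exact test). It was lower in the Tet1-null pool under each of 14 alternatives, some of which change only the test or its adjustment. Of the 12 with a test, 0 made it pass. The methylated reads of the WT pool came from 10 of 47 sites in 4 bins of 100 bp. Most lay in the bin from 67148100 to 67148199 (9 of 27) and that from 67149700 to 67149799 (8 of 24). The Tet1-null pool had 0 of 6 and 0 of 18 there. In the former it had 1 read per CpG, so the pools could hardly be compared. The longest run, 4 CpGs within 19 bp, held 0 methylated reads of 10 in the Tet1-null pool and 8 of 20 in the WT pool.

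Peg3 encodes a zinc finger protein and shares its start with Usp29, which is transcribed in the other direction. Its region (chromosome 7 from 6680000 to 6684000) had 48 methylated reads of 179 in the Tet1-null pool, or 26.8% (20.9 to 33.7%), and 16 of 100 in the WT pool, or 16.0% (10.1 to 24.4%), at shared sites. The Tet1-null level was the highest of the 7 regions at these sites, and in the WT pool Snrpn alone was higher. The difference of 10.8 points (0.504 to 19.9) did not pass (adjusted p = 1, Fisher's exact test). All listed sites gave 33.1% in the Tet1-null pool and 10.7% in the WT pool, a difference of 22.4 points (14.4 to 29.4) that passed Fisher's exact test (adjusted p = 0.000675) and the quasi-binomial F test (adjusted p = 0.0346). The direction turned where each site had to hold more reads. With a minimum of 2 in each table the difference was -11.0 points, and with a minimum of 3 it was -61.5 points, on 18 Tet1-null and 13 WT reads (adjusted p = 0.0394, Fisher's exact test). All reads of the latter came from neighbouring CpGs from 6683285 to 6683310, in the promoter stretch described above (CpGs 1 to 5). They may stem from few molecules and do not describe the region as a whole.

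Peg3 held one sharp contrast between pools, which rests in part on CpGs read in 1 pool only. Over all listed sites, 34 of 62 reads (54.8%) in the 1 kb window 6682001 to 6683000 were methylated in the Tet1-null pool and 0 of 42 in the WT pool (adjusted p = 3.17e-06 by Fisher's exact test). Of these 34, 21 fell in the bin of 100 bp that starts at 6682700, where the WT pool had 2 reads. Its CpGs at 6682774, 6682782, 6682786 and 6682791 each had 7 Tet1-null reads and no WT read. Reads of CpGs this close may stem from the same few molecules. The test takes them as separate and sets them in part against WT reads at other CpGs, so its p is too small. At its shared sites the window had 14 of 33 and 0 of 19, too few reads to enter the test. The next window, up to 6684000, had 42 of 127 (33.1%) in the Tet1-null pool and 15 of 39 (38.5%) in the WT pool and did not pass. The WT pool was thus methylated in the window that holds the Peg3 start and without a methylated read in the window beside it.

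Inpp5f encodes a phosphoinositide phosphatase, and the imprinted region is the start of a shorter transcript within the gene. The region (chromosome 7 from 135831500 to 135832500) had the fewest shared sites, 12. It held 3 methylated reads of 21 in the Tet1-null pool, or 14.3% (4.98 to 34.6%), and 0 of 16 in the WT pool, and a count of 0 there allows a level of up to 18.8%. The difference of 14.3 points (-7.19 to 34.6) was not detectable at this depth. Counting every listed site, the Tet1-null pool held 27 of 83, or 32.5% (23.4 to 43.2%), and the WT pool 1 of 45, or 2.22% (0.393 to 11.6%), and the difference of 30.3 points passed Fisher's exact test (adjusted p = 0.0248) but not the quasi-binomial F test (adjusted p = 0.0679). A run of 10 CpGs within 98 bp at the left end held 16 methylated reads of 36 in the Tet1-null pool and no read in the WT pool. The methylated reads of the Tet1-null pool lay in the left part of the region, and most reads of the WT pool lay in the right part. In the bin of 250 bp at the left end, 16 of 42 reads were methylated in the Tet1-null pool and 0 of 5 in the WT pool, and in the next bin 11 of 31 and 0 of 10. The 1 kb window from 135831001 to 135832000, which begins left of the region, had 37 of 119 (31.1%) in the Tet1-null pool and 0 of 40 in the WT pool over all listed sites (adjusted p = 0.00818 by Fisher's exact test). At its shared sites the window had 6 of 35 and 0 of 38 and did not pass (adjusted p = 0.661, Fisher's exact test). Among windows overlapping any of the 7 regions, 2 of 17 tested were called higher with all listed sites (0.102% of all windows). At shared sites 0 of 12 were (0.103% of all windows). All listed sites at least 100 bp apart turned the difference to -2.52 points, on 17 Tet1-null and 7 WT reads.

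Peg10 is a gene derived from a retrotransposon that the placenta needs. Its region (chromosome 6 from 4696000 to 4699500) had the most shared sites, 97. It held 36 methylated reads of 238 in the Tet1-null pool, or 15.1% (11.1 to 20.2%), and 7 of 163 in the WT pool, or 4.29% (2.10 to 8.60%). The difference was 10.8 points (4.96 to 16.4), with an adjusted p of 0.145 by Fisher's exact test, and it was 6.61 points (2.22 to 10.6) with all listed sites (adjusted p = 0.405, Fisher's exact test). It was above 0 under each of 14 alternatives, from 3.61 to 22.2 points, though some of them change only the test or its adjustment. The longest run of methylated sites in the Tet1-null pool lay near the right end, where 8 CpGs within 55 bp, from 4699103 to 4699157, held 14 methylated reads of 39 there and 0 of 8 in the WT pool. The longest run of the WT pool lay elsewhere, from 4697453 to 4697651, where the Tet1-null pool had 1 methylated read of 55 and the WT pool 5 of 8.

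Mest encodes a protein of the alpha/beta hydrolase fold. Its region (chromosome 6 from 30685400 to 30689500) had 11 methylated reads of 149 in the Tet1-null pool, or 7.38% (4.17 to 12.7%), and 1 of 79 in the WT pool, or 1.27% (0.224 to 6.83%). The difference was 6.12 points (-0.305 to 11.6) at shared sites and 1.67 points (-3.43 to 5.25) with all listed sites (adjusted p = 1 for each, Fisher's exact test), and neither interval excluded 0. The direction of Mest turned only with all listed sites at least 100 bp apart, to -5.66 points on 55 Tet1-null and 27 WT reads. With shared sites at that spacing it was 5.26 points, on 38 and 22 reads.

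Nap1l5 encodes a protein of the nucleosome assembly family and lies inside Herc3. In its region (chromosome 6 from 58856500 to 58857500) no read was methylated in either pool, 0 of 28 in the Tet1-null pool and 0 of 36 in the WT pool at shared sites, and 0 of 42 and 0 of 68 with all listed sites. A count of 0 allows a level of up to 7.14% in the Tet1-null pool and up to 4.41% in the WT pool with all sites. At shared sites the limits are 10.7% and 8.33%. Reads of neighbouring CpGs are counted as separate in these limits, and with all listed sites at least 100 bp apart 8 Tet1-null and 12 WT reads were left.

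**Figure D2:**
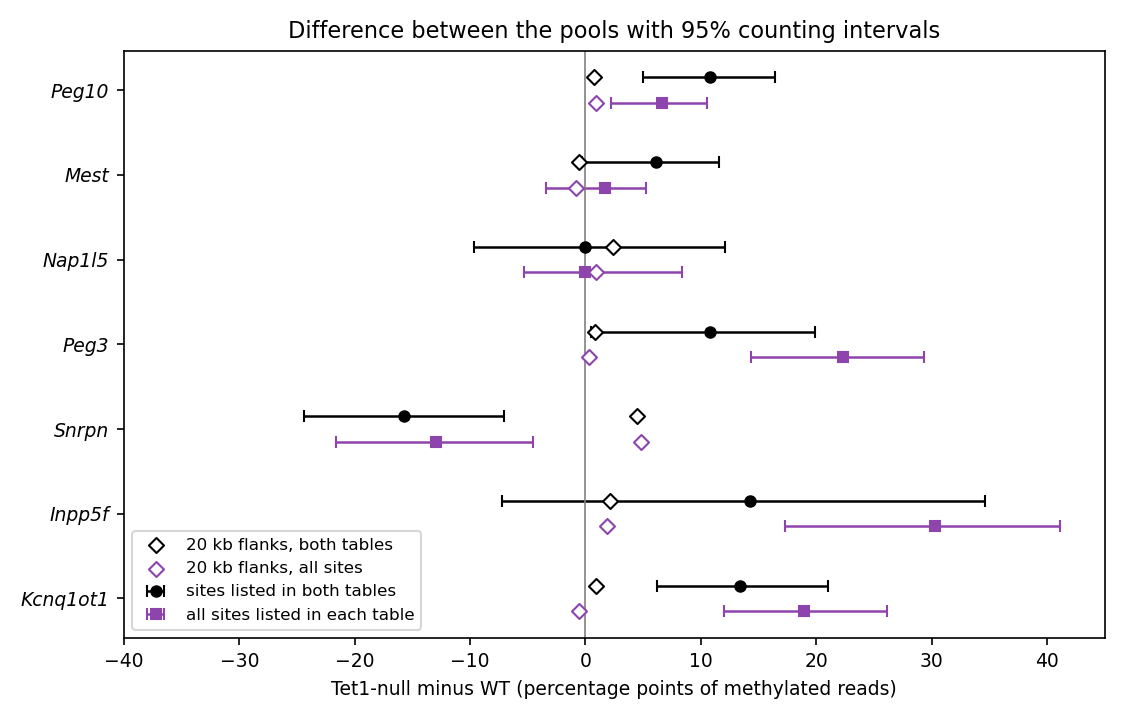
Tet1-null minus WT difference of each region in percentage points (horizontal axis) with Newcombe 95% intervals; circles use sites listed in both tables, squares all sites of each table, and open diamonds give the difference of the 20 kb flanks. The intervals of Peg10, Peg3 and Kcnq1ot1 lie right of 0 and that of Snrpn left of 0 with either set of sites, while the flanks lie between -0.787 and 4.77 points.

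The regions were set against the 20 kb on either side, which are outside the imprinted intervals. Flank levels at shared sites ranged from 3.12 to 7.90% in the Tet1-null pool and from 1.31 to 4.48% in the WT pool. In the Tet1-null pool 5 of 7 regions lay above their flanks with an interval that excluded 0 (Peg10, Mest, Peg3, Inpp5f and Kcnq1ot1), and in the WT pool 2 of 7 did (Peg3 and Snrpn). Over all listed sites Mest was no longer among them in the Tet1-null pool, and the WT regions were the same. These intervals count reads of neighbouring CpGs as separate and are too narrow. At shared sites the lower bounds for Mest (0.542 points) and Inpp5f (1.48 points) in the Tet1-null pool were near 0. The ratio of region to flank at shared sites was 5.03 for Peg3, 4.85 for Peg10 and 4.24 for Kcnq1ot1 in the Tet1-null pool, against 3.57, 1.81 and 1.21 in the WT pool. For Inpp5f it was 4.20 in the Tet1-null pool, and 0 of 16 reads in the WT pool are too few to give a ratio. For Snrpn it was 0.422 in the Tet1-null pool and 5.51 in the WT pool. Peg3 was the region whose interval excluded 0 in both pools, at shared sites and over all listed sites.

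The change of each region was also set against that of its flanks, which takes out a difference that the surroundings share. At shared sites the region change minus the flank change was 10.1 points for Peg10 (95% interval 3.92 to 16.0) and 12.5 points for Kcnq1ot1 (4.88 to 20.5). It was -20.2 points for Snrpn (-29.7 to -10.6), whose flanks were higher in the Tet1-null pool by 4.44 points. The intervals included 0 for Mest (6.64 points), Nap1l5 (-2.35 points), Peg3 (9.97 points) and Inpp5f (12.2 points). Using all listed sites, Peg3 at 22.0 points (13.8 to 29.3) and Inpp5f at 28.4 points (15.3 to 39.3) also excluded 0.

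**Figure D3:**
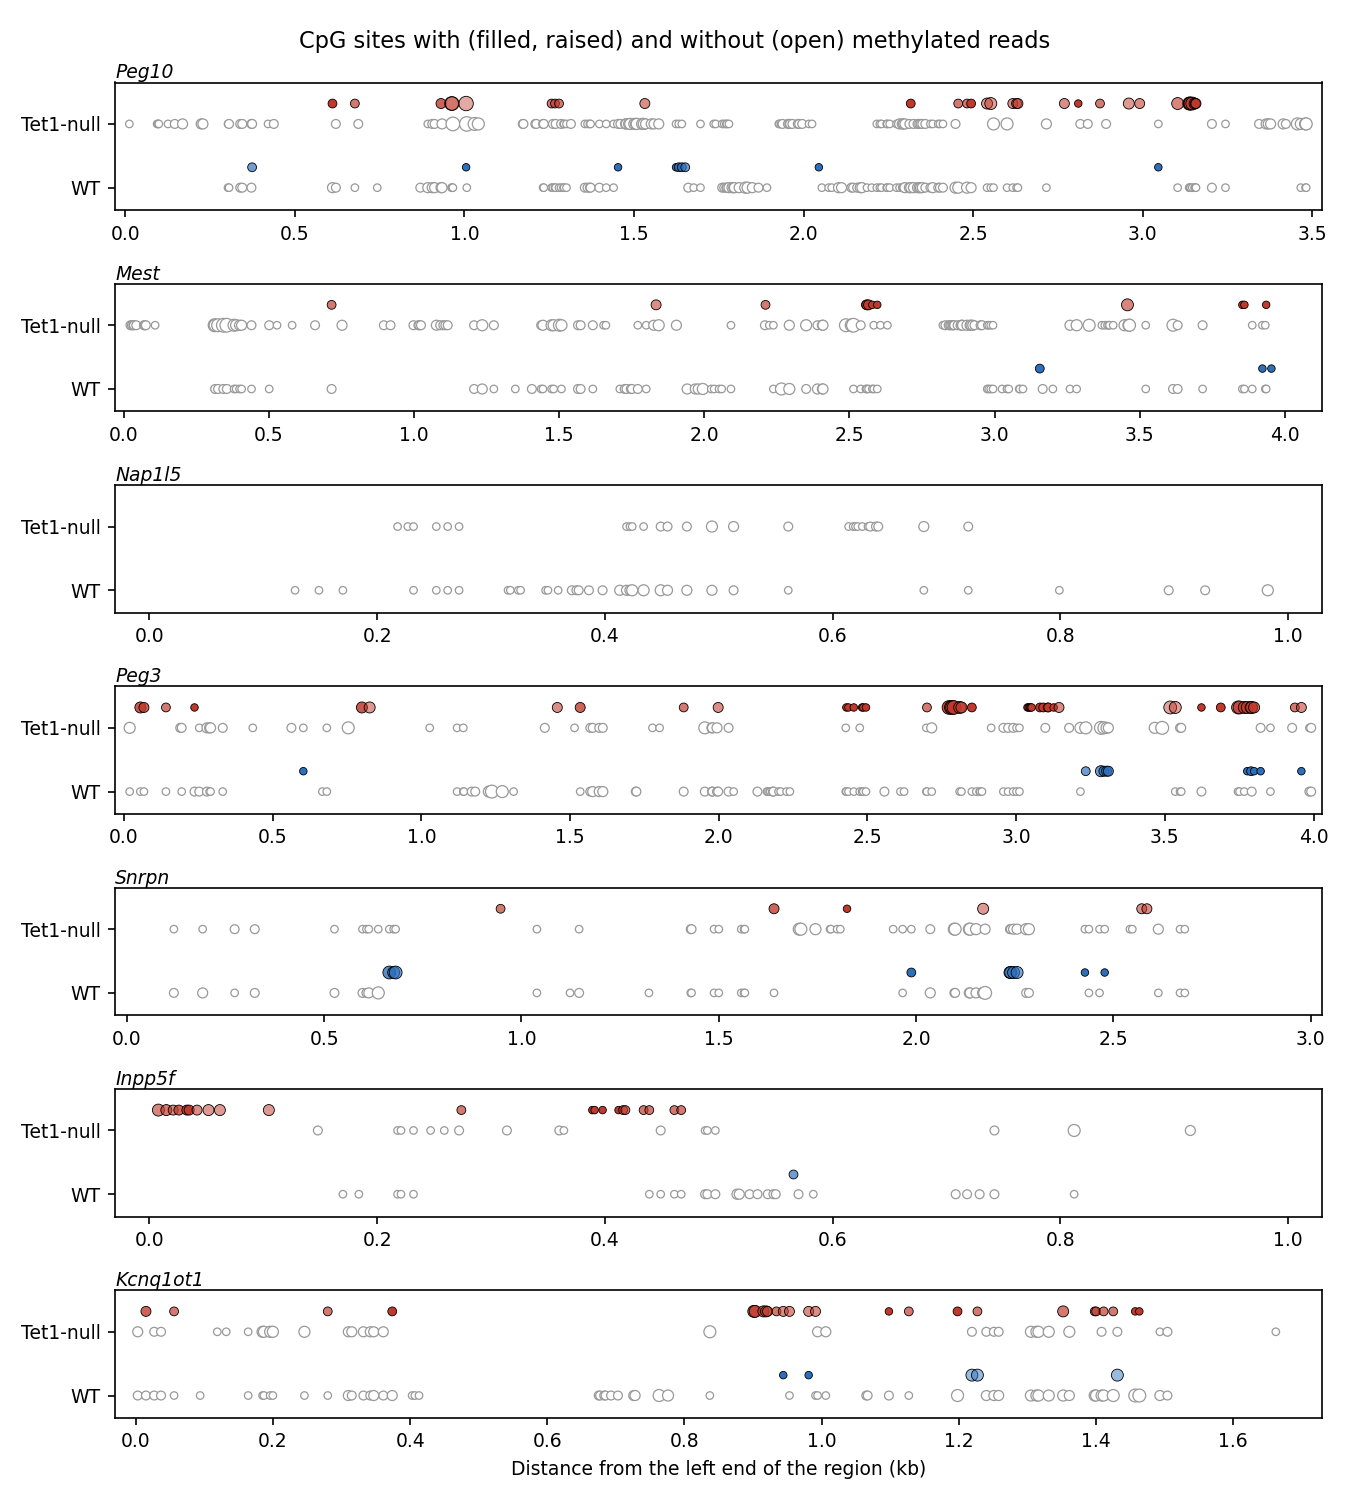
CpG sites along each region by distance from its left end (kb), Tet1-null above WT in each panel; circle area grows with reads, open circles had no methylated read, and filled circles, drawn raised, are darker at higher levels. Methylated sites of the Tet1-null pool include the run of 8 near the right end of Peg10 and the run of 10 at the left end of Inpp5f; Nap1l5 has none.

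Methylated reads were also compared CpG by CpG. Of the 344 shared sites, 8 had a methylated read in both pools, 78 in the Tet1-null pool only, 26 in the WT pool only and 232 in neither. At about 2 reads per site, a CpG methylated on some molecules is often seen without a methylated read, so these counts do not show that different CpGs kept methylation. In bins of 250 bp, which hold more reads, 63 of 74 bins had reads in both pools. Of these, 12 had methylated reads in both, 23 in the Tet1-null pool only, 7 in the WT pool only and 21 in neither. The level was higher in the Tet1-null pool in 31 bins and lower in 11. The bins use all listed sites, where the Tet1-null pool had 1384 reads and the WT pool 888. At shared sites the Tet1-null pool had 839 and the WT pool 637. More reads alone give more sites and bins with a methylated read. The shares over such sites and bins of the whole genome were not computed. Peg3 had 10 bins higher and 2 lower, Mest 6 and 0, Kcnq1ot1 5 and 0, Peg10 6 and 4, Inpp5f 2 and 1, and Snrpn 2 and 4. The highest level of a bin was 75.0% in the Tet1-null pool and 66.7% in the WT pool, at Peg3 and Snrpn, on few reads.

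The regions are CpG-rich, with 20.3 (Snrpn) to 53.7 (Peg10) positions listed per kb, counting positions listed in either table. Windows of 3 kb with 40 to 59 positions per kb, the class of Peg10, Nap1l5, Inpp5f and Kcnq1ot1, were at 3.76% in the Tet1-null pool and 3.43% in the WT pool. Windows with 20 to 39 positions, the class of Mest, Peg3 and Snrpn, were at 4.32% in the Tet1-null pool and 3.86% in the WT pool. The place of the regions in these classes depended on the window size. Of the 1730 denser windows of 3 kb, 0.462% had a Tet1-null level at or above that of Kcnq1ot1, 0.462% at or above that of Peg10 and 0.694% at or above that of Inpp5f. Of the 6916 denser windows of 1 kb, nearer the length of Inpp5f and Kcnq1ot1, these shares were 2.47% for Kcnq1ot1, 2.92% for Peg10 and 3.07% for Inpp5f. In the other class, the share at or above the Tet1-null level was 2.77% for Peg3 and 9.88% for Mest among 17423 windows of 3 kb, and 6.50% for Peg3 and 21.8% for Mest among 52084 windows of 1 kb. A WT level at or above that of Snrpn was found in 3.23% of the 3 kb and 7.51% of the 1 kb windows of its class.

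By the difference, the share of windows of the same class at or above the region was 0.289% (3 kb) and 1.29% (1 kb) for Kcnq1ot1, and 0.289% and 1.10% for Inpp5f. It was 0.405% and 1.81% for Peg10, 1.74% and 7.54% for Peg3, and 6.15% and 15.8% for Mest, with 3 kb and 1 kb windows in that order. The share at or below Snrpn was 0.511% with 3 kb and 2.12% with 1 kb windows. Of all 527622 windows of 3 kb, 0.0459% were called higher and 0.025% lower. Regions and windows differ in length and in reads, so these shares place the regions and are no test. Inpp5f, with 16 WT reads at shared sites, was below the minimum of 20 reads in each pool that every window met. The interval of its difference (-7.19 to 34.6 points) included 0, so its shares by level and by difference rest on few reads.

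**Figure D4:**
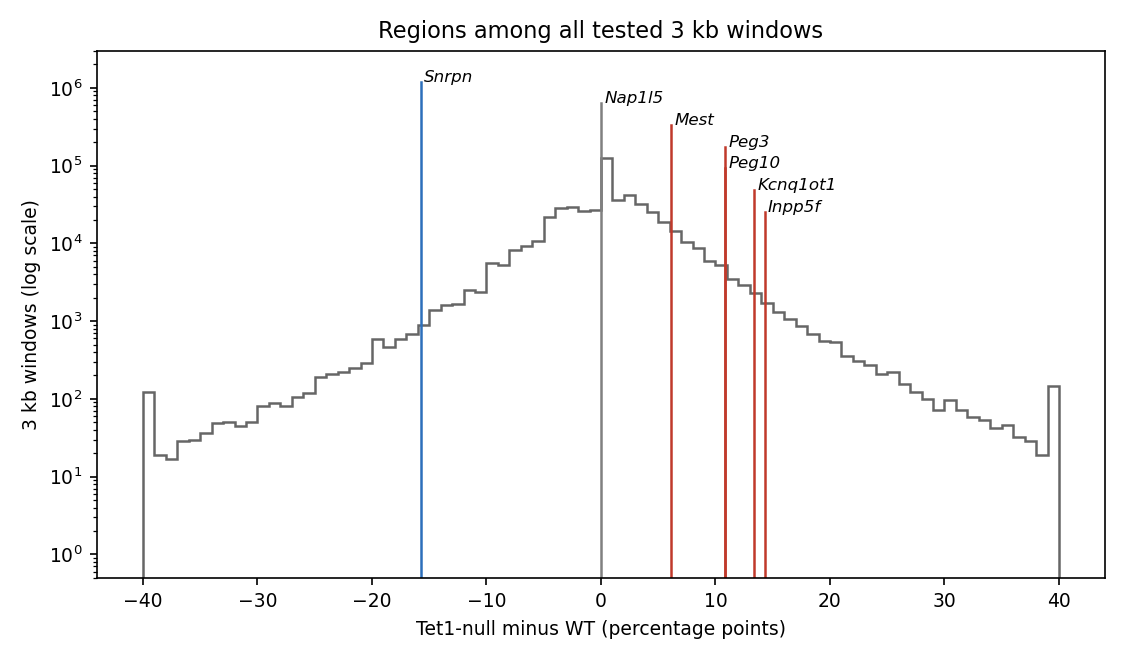
Number of 3 kb windows (vertical log axis) by Tet1-null minus WT difference in percentage points, at sites listed in both tables, with lines at the 7 regions; differences beyond 40 points either way are counted in the outermost bins. Snrpn lies at -15.8 points, Nap1l5 at 0 and the other 5 regions between 6.12 and 14.3 points.

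Of 22 other genes in or beside the same imprinted clusters, 16 had a promoter sequence and 13 could be placed in the tables, 12 of them outside the regions. Only 2 of these had 20 or more reads in each pool. Ppp1r9a, which encodes a regulatory subunit of protein phosphatase and lies beside Peg10, had 0 methylated reads of 63 in the Tet1-null pool and 0 of 35 in the WT pool. Zim1, a zinc finger gene beside Peg3, had 0 of 21 and 1 of 24. The promoter of Usp29 lies within the Peg3 region and shares CpGs with the sequence printed above. The Inpp5f promoter of the table, outside the imprinted region, held 5 methylated reads of 80 in the Tet1-null pool (6.25%) and 0 of 23 in the WT pool. A further Mest promoter to the left of its region held 0 of 16 and 0 of 5.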

How the data were processed

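Per the labels' protocols, DNA of 5 Tet1-null and 4 WT libraries was cut and tagged with Tn5, treated with bisulfite (Sigma or Zymo kit), amplified and sequenced. The authors deposited 1 table per genotype with its libraries pooled, with a fraction of methylated reads and a count of reads for each CpG. Level times count was a whole number at 100% of sites (tolerance 0.0005 per read). Build mm9 and bedtools are named in the submitters' processing notes; the aligner is not given in the sources used here, nor is the handling of duplicates. A script among the deposited files removes reads whose unconverted cytosines outside CpG exceed 1.2% of their bases, which can lower levels. Bisulfite does not separate 5-methylcytosine from 5-hydroxymethylcytosine. BED starts were raised by 1 to give positions.

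Reads were summed over the sites listed in both tables (Python 3.11.15, numpy 2.4.6, pandas 2.3.3, scipy 1.17.1, matplotlib 3.10.9). Levels carry Wilson 95% intervals, differences Newcombe intervals, and differences of differences an interval combined from the Wilson bounds. All of them count reads of neighbouring CpGs as separate. Limits for a count of 0 use 3 counts. Fisher's exact test, two-sided, was adjusted by Benjamini-Hochberg over the 7 regions and all 1 kb windows of autosomes and X with 5 or more shared sites and 20 reads in each pool. On simulated data over these 278113 windows the share found was 8 of 100 for differences of 30 points and 90 of 100 for 60 points, and 1 unchanged window was called. The simulated reads were independent, without shared molecules, PCR copies or variation between libraries. These shares and the rate of false calls therefore need not hold for the real reads. A promoter was placed where all listed positions in it fell on its CpGs, at 6 or more CpGs and 1.5 times the next best place of the chromosome. All 7 regions are named; other genes were named by the size of their difference among those with 20 reads in each pool. The members and lists were chosen with earlier results of these data known. Alternatives were other sets and spacings of sites, equal depth, region ends, flank widths, window sizes and minimums, and a quasi-binomial test.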

Additional observations from a re-analysis of the deposited data

Results flagged for a closer look

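CpG sites listed in the table of 1 pool only are outside the sums over shared sites, and 3 regions held more methylated reads there in the Tet1-null pool than at the sites listed in the WT table only, with Wilson intervals that did not overlap. In Peg3, 36 sites listed for the Tet1-null pool alone held 44 methylated reads of 99 (44.4%, 35.0 to 54.3%), and 29 sites listed for the WT pool alone held 0 of 49, which allows a level of up to 6.12%. In Inpp5f, 26 such sites of the Tet1-null pool held 24 of 62 (38.7%, 27.6 to 51.2%), and 15 of the WT pool held 1 of 29 (3.45%, 0.611 to 17.2%). In Kcnq1ot1, 9 such sites of the Tet1-null pool held 12 of 26 (46.2%, 28.8 to 64.5%), and 16 of the WT pool held 0 of 35, which allows up to 8.57%. Peg10 had 3.87% at such sites of the Tet1-null pool and 3.45% at those of the WT pool, and Mest had 2.52% and 6.52%, with intervals that overlapped. Snrpn held 4 of 30 (13.3%, 5.31 to 29.7%) at such sites of the Tet1-null pool, against 3 of 90 at its shared sites. At such sites of the WT pool it had 2 reads, too few to compare. The difference between these sites was not tested, since they are not the same CpGs in both pools. Peg3, Inpp5f and Kcnq1ot1 passed as higher when all listed sites were summed, and not at shared sites.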

How the results depend on the processing

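No paired analysis was possible because each table pools the libraries of a genotype, and leaving out single libraries was not run for the same reason. Of the alternative values for the regions, 8 made a difference pass with its sign kept, and 4 turned its sign. Among these 4, the Peg3 value with 3 reads per site and table also passed, as lower in the Tet1-null pool. Fisher's exact test gave it an adjusted p of 0.0394. The remaining 85 neither passed nor turned. They include all values of Nap1l5, which had no difference to keep, and a difference of 0 for Mest with 3 reads per site and table and for Inpp5f with 2, on few reads. With all listed sites Peg3 (22.4 points), Inpp5f (30.3 points) and Kcnq1ot1 (18.9 points) passed, also when adjusted with 3 kb windows, and by the quasi-binomial F test Peg3 and Kcnq1ot1 did. Over the alternatives with a test the adjusted p ranged from 0.000675 to 1 for Peg3, 0.0248 to 1 for Inpp5f and 0.000433 to 1 for Kcnq1ot1 (Fisher's exact test at the low end). Peg3 turned to -11.0 points when each site had to hold 2 reads per table. With 3 it was -61.5 points, all from neighbouring CpGs from 6683285 to 6683310. With all listed sites at least 100 bp apart Mest turned to -5.66 points and Inpp5f to -2.52 points. At shared sites that far apart neither turned (5.26 points for Mest and 20 for Inpp5f). Sites 100 bp apart leave fewer reads (5 Tet1-null and 4 WT reads for Inpp5f at shared sites), so a loss of calls there is no sign of a smaller difference. Over all alternatives the difference ranged from 3.61 to 22.2 points for Peg10, 6.67 to 19.7 for Kcnq1ot1 and -16.7 to -9.34 for Snrpn. Inpp5f had no shared site with 3 reads in each table. For region minus flank, 55 alternatives lay within the interval reported and 1 outside it, Peg10 in the Tet1-null pool at 7.27 points with all listed sites. The genome-wide calls, 286 windows higher and 169 lower, became 0 and 3 with sites 100 bp apart, 42 and 33 by the quasi-binomial F test, and 171 and 99 with 10 sites and 40 reads in each pool. With all listed sites 266 were lower. Window counts over all listed sites, alternatives that combine all listed sites with another choice, and those adjusted with 3 kb windows were added after seeing the data. The causes of these shifts were not tested.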

Other observations

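The flanks of the regions were not alike on their sides, and the sides named here were chosen after their values were seen. At shared sites, the 20 kb left of Kcnq1ot1 were at 7.49% in the Tet1-null pool and 3.81% in the WT pool, and the 20 kb to its right at 0.997% and 2.42%. The left flank of Peg3 was at 7.32% in the Tet1-null pool and 2.94% in the WT pool, and its right flank at 2.93% and 6.46%. Both flanks of Snrpn joined were at 7.90% in the Tet1-null pool and 3.46% in the WT pool, a difference of 4.44 points (Newcombe 95% interval 0.314 to 8.49), and those of Inpp5f at 3.40% and 1.31%, a difference of 2.09 points (0.561 to 3.61). Snrpn itself was lower in the Tet1-null pool while its flanks were higher. At Mest the flanks were at 3.24% in the Tet1-null pool and 3.77% in the WT pool, a difference of -0.52 points (-2.78 to 1.56) against 6.12 points within the region.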
